A study of Mus musculus with 4 samples.

Results

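Mast cells, the histamine- and protease-storing cells of the immune system, were found in small number among sorted stem and progenitor cells of the mouse fetal liver. They were chosen by their transcripts: a barcode counted as a cell when it held at least 8000 gene UMIs (unique molecular identifiers, 1 for each captured RNA molecule) and at most 10% mitochondrial UMIs, and a cell counted as a mast cell when at least 2 of Cma1, Tpsb2, Hdc and Mcpt4 had 2 or more UMIs each and Cma1 and Tpsb2 together had 4 or more. By this rule 72 of 5352 cells in the control library and 51 of 2742 cells in the knockout library were mast cells, 123 of 8094 cells in all. The values of those 4 genes therefore describe the choice and support nothing.

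The cells were LSK cells, the lineage-negative, Sca1-positive, c-Kit-positive fraction that holds stem cells, from livers of E17.5 embryos. The control group (WT) had floxed Bclaf1 alleles (Bclaf1f/f) without Cre, and the knockout group (KO) carried the same floxed alleles together with Vav-Cre (Vav-Cre:Bclaf1f/f), in which the Vav promoter drives Cre in blood cells. Livers of 10 embryos were pooled per genotype, c-Kit+ cells were enriched on beads, 20000 LSK cells were sorted in 2 rounds and 10000 were loaded into 1 droplet reaction. Each genotype thus gave 1 library, read as messenger RNA and as the barcodes of 6 antibodies (CITE-seq), and the age of the embryos and the gate were the same in both groups. With 1 library per genotype there was no replicate and no test: every interval given is a 95% interval for counting error only, and every comparison of KO with WT is a comparison of these libraries. Intervals do not cover differences between embryos or between preparations. Those of log2 ratios treat the UMIs summed over a group of cells as 1 count, so they do not cover differences between cells either.

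Mast cells arise from haematopoietic progenitors and finish maturing in tissues, where stem cell factor acting on Kit keeps them alive. Their granules hold chymases, tryptases and carboxypeptidase A3 bound to heparin and serglycin, along with histamine and serotonin, and cross-linking of IgE on the high-affinity receptor or activation of Mrgprb2 releases them. Mast cells of connective tissue carry Mcpt4, Cma1, tryptases and Mrgprb2, while those of mucosa carry Mcpt1 and Mcpt2.

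The 250 bases before the annotated start of 3 granule protease genes are shown from RefSeq on GRCm38.p6, since their transcripts were among the highest and most uneven of these cells. Cma1 and Cpa3 were present in every mast cell, whereas Mcpt4 was high in few. Capitals mark the only matches to the GATA motifs searched, AGATAA and TGATAA, on either strand. The windows are Cma1 (chr14:55944676-55944925, minus strand), Mcpt4 (chr14:56062311-56062560, minus strand) and Cpa3 (chr3:20242182-20242431, minus strand), each printed 5′ to 3′ in the direction of transcription.
Cma1: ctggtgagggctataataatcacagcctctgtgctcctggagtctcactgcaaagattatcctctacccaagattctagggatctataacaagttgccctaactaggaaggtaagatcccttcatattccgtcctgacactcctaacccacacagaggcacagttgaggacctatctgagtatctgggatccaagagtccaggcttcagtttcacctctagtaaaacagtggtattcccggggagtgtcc
Mcpt4: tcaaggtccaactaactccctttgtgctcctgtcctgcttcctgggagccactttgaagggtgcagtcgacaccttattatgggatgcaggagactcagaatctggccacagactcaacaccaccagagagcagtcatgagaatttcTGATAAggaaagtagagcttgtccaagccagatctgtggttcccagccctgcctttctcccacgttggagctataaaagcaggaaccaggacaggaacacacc
Cpa3: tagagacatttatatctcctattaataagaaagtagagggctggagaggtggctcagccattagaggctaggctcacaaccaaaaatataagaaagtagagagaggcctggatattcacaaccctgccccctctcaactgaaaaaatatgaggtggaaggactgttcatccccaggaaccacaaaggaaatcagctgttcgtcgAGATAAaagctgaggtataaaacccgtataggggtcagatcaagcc

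The Mcpt4 window held TGATAA from 103 to 98 bases before the start, and the Cpa3 window held AGATAA from 46 to 41 bases before it. The Cma1 window, and that of Hdc (chr2:126618679-126618928, not printed), held neither. The E-box CACATG was in none of these windows. Among windows of the same length before 27025 genes, 10.3% held AGATAA, 8.16% TGATAA, 17.0% either of them and 12.2% CACATG, so a match is common and describes the letters only.

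The antibodies were read through barcodes of 15 bases. Those of the 3 tags that set mast cells apart, or that the sort used, are shown.
CD117: TGCATGTCATCGGTG
CD48: AGAACCGCCGTAGTT
Sca1: GTCCGACTAATAGCT
CD117 is Kit itself, CD48 is an adhesion molecule of committed progenitors, and the reagent listed for the Sca1 tag is a PE-streptavidin conjugate, which reads a biotinylated antibody.

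The libraries held 141475677 gene UMIs in WT cells and 104951740 in KO cells, of which mast cells held 0.958% and 1.07%. Levels are given as gene UMIs scaled to a total of 1000000 (CPM). Each UMI stands for 1 captured 3′ end, so levels were not divided by transcript length. The cells shared 5 barcodes between libraries, none of them a mast cell's. Mast cells were shallower than the other cells, with medians of 11948 against 22862 gene UMIs in WT and 17869 against 33861 in KO. Median mitochondrial shares were 4.23% and 5.21% in mast cells, and 4.02% and 4.17% in the other cells.

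The mast cells stood far from the threshold that chose them. The sum of Cma1 and Tpsb2 ran from 92 to 1140 UMIs in WT mast cells (median 607) and from 189 to 1555 in KO (median 790). The next lowest mast cells had 125 and 249. Among the other cells the highest sums were 4 in WT and 3 in KO, and 416 of 5280 and 375 of 2691 had any UMI of the pair. No cell lay between these values. In barcodes with 10 to 100 gene UMIs, too few for a cell, Cma1 was at 158 and 173 CPM, against 1.77 and 2.30 CPM in the other cells.

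A part of the mast cells was unusually deep. Above 2 times the median depth of the mast cells of each library lay 13 WT cells, with 24456 to 107474 gene UMIs, and 9 KO cells, with 39818 to 63799. The remaining 59 and 42, termed mast cells of ordinary depth, had at most 19967 and 24103. This split was added after the data were seen. It was made among mast cells only, and the other cells were kept at every depth. The 4 granule genes Cma1, Tpsb2, Cpa3 and Hdc made up 8.13% of gene UMIs at the median in WT cells of ordinary depth (2.91 to 14.1) and 7.99% in KO (4.45 to 12), but 2.20% and 2.34% in the deep ones.

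Genes of other lineages stood with the deep mast cells. At least 10 UMIs of Mpo, Prtn3, Flt3, Hlf and Klf1 together, genes of granulocyte-monocyte, lymphoid, stem and erythroid cells, were found in 11 of 13 deep WT cells and 7 of 9 deep KO cells. None of the 59 and 42 cells of ordinary depth reached that, their highest sums being 9 and 2. The summed level of the 10 granulocyte-monocyte genes listed ran from 0 to 4464 CPM in WT (median 1031) and from 0 to 1005 CPM in KO (median 232) per deep mast cell, and from 0 to 339 CPM in WT (median 0) and from 0 to 682 CPM in KO (median 0) per mast cell of ordinary depth. No doublet caller was run, and whether a deep barcode held 2 cells was not tested. The deep cells gave 47.9% of the mast cells' UMIs in WT and 38.0% in KO, and values that they moved are given both ways below where the comparison of libraries turns on them.

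**Figure D1:**
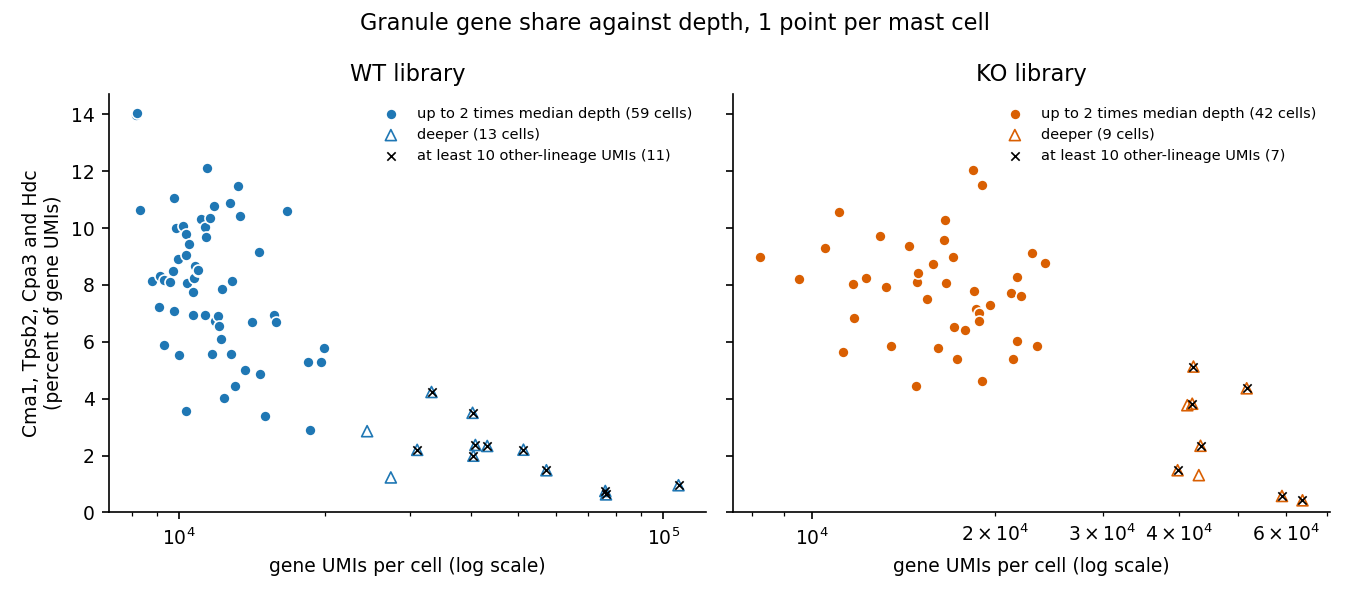
The share of a cell's gene UMIs taken by Cma1, Tpsb2, Cpa3 and Hdc (vertical axis, percent) is plotted against its gene UMIs (horizontal log axis), 1 point per mast cell, for WT (left) and KO (right). Filled points are cells of ordinary depth, open triangles are deep cells, and crosses mark at least 10 UMIs of Mpo, Prtn3, Flt3, Hlf and Klf1. The crosses sit on 11 and 7 deep cells, where the share is low.

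Granule protease genes gave the highest levels among the mast cell genes listed. Cma1, which encodes a chymase (mast cell protease 5), was counted from 54 to 749 UMIs per cell in WT (median 352) and from 97 to 1010 in KO (median 479). Over all mast cells it stood at 18740.4 (WT) and 23216 CPM (KO). Tpsb2, a tryptase (mast cell protease 6), was counted from 3 to 483 UMIs per cell in WT (median 242) and from 88 to 545 in KO (median 272) and stood at 13398 (WT) and 13108 CPM (KO). Cpa3, carboxypeptidase A3, was not used by the rule and was counted from 118 to 489 UMIs per cell in WT (median 236) and from 68 to 798 in KO (median 358). Its level was 13084 (WT) and 16789 CPM (KO), against 16.1 and 29.9 CPM in the other cells, a log2 ratio of 9.67 in WT (9.61 to 9.73) and 9.13 in KO (9.08 to 9.19). All 72 and 51 mast cells held Cpa3.

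Of the 8 granule protease genes with at least 50 CPM in mast cells or other cells of a library, 7 were at least 4-fold higher in mast cells of both libraries. Over all genes counted the share was 6.43%, and 0.281% were 4-fold lower in both. In cells of ordinary depth 7 of 8 passed, against 9.12% of all genes counted, with 7.77% lower. The rule rests on the same contrast, so these counts, and the ratios of mast cells to the other cells below, describe the chosen cells and nothing is read from them. Ctsg, cathepsin G, was the protease that did not pass. It stood at 71.6 (WT) and 35.7 CPM (KO), in 12 WT and 12 KO mast cells, and at 61.1 and 114 CPM in the other cells, where it belongs to granulocyte-monocyte progenitors.

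The chymase genes on chromosome 14 differed sharply from neighbour to neighbour. Cma1 (chr14:55941451-55944675 on GRCm38.p6) lay beside Cma2 (chr14:55950980-55989785), which had 38 UMIs in 28 WT cells and 36 UMIs in 22 KO cells. Mcpt1, Mcpt2 and Mcpt9, the next genes along, had no UMI in either set of mast cells, which allows up to 2.21 (WT) and 2.67 CPM (KO) (3 counts of the mast cells' total) for each. Mcpt4 (chr14:56059744-56062310), the chymase of mature connective tissue mast cells, had 471 UMIs in WT and 913 in KO but in only 11 WT and 11 KO cells. Of these, 2 WT cells (106 and 345 UMIs) and 2 KO cells (266 and 624 UMIs) held 50 or more, and the others held 1 to 7. Mcpt8 (chr14:56082163-56085499), the basophil protease, had 1 UMI in WT and 7 in KO. Gzmc, Gzmd, Gzme, Gzmf, Gzmg and Gzmn, granzyme genes of the same cluster, were at 0, while Gzmb had 24 UMIs in WT and 47 in KO in 4 WT and 2 KO cells.

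On chromosome 17, Tpsb2 (chr17:25366308-25368096) was likewise far above its neighbours. Tpsab1 (chr17:25343245-25345562), the tryptase mast cell protease 7, stood at 213 (WT) and 141 CPM (KO) and was found in 50 WT and 38 KO cells. Tpsb2 and Tpsab1 are alike in sequence, and how reads that fit both were counted is not given in the sources used here, so their split is uncertain. Tpsg1 (chr17:25369195-25374442), a tryptase anchored in the membrane, stood at 49.4 (WT) and 57.9 CPM (KO). Prss34 (chr17:25298394-25300168), mast cell protease 11, stood at 484 (WT) and 709 CPM (KO), in 37 WT and 32 KO cells, with at most 91 and 121 UMIs in a cell. It was thus absent from many cells and high in some. Prss33, Prss41, Prss21, Prss22, Prss27 and Prss29 had no UMI in mast cells, and Prss28 had 2 and 1.

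**Figure D2:**
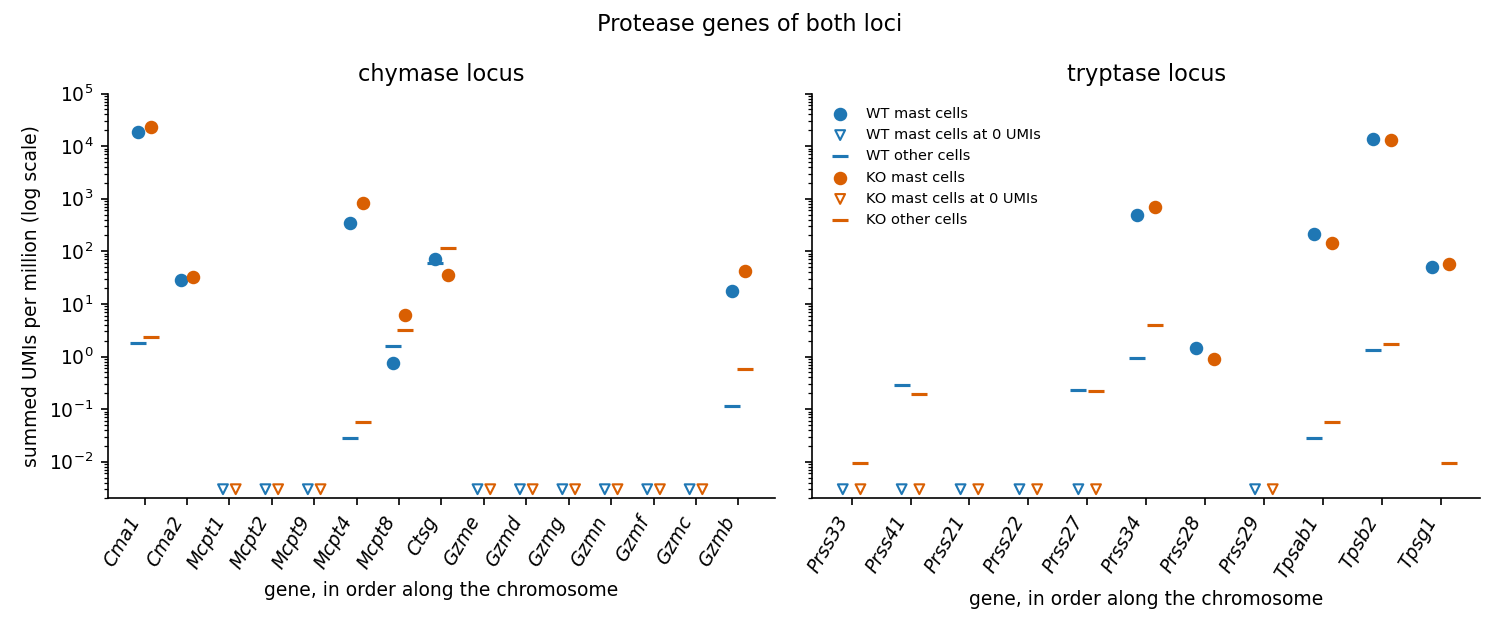
Level in mast cells (points, CPM on a log axis) of protease genes in their order along chromosome 14 (left) and chromosome 17 (right), for WT in blue and KO in orange. Open triangles near the lower edge mark genes without a UMI in mast cells, and dashes give the level in the other cells. Cma1 and Tpsb2 stand highest in their panels.

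Genes of histamine and serotonin were high together with the proteases. Hdc, histidine decarboxylase, which makes histamine and was part of the rule, was counted from 12 to 146 UMIs per cell in WT (median 61) and from 15 to 206 in KO (median 91). Tph1, tryptophan hydroxylase 1, which starts serotonin synthesis, was not part of it and stood at 401 (WT) and 268 CPM (KO), against 0.136 and 0.270 CPM in the other cells. It was found in 64 WT and 46 KO mast cells, and the highest cell held 73 in WT and 28 in KO. Slc6a4, the serotonin transporter of the cell membrane, stood at 157 (WT) and 173 CPM (KO), and Slc18a2, which loads amines into vesicles, at 185 (WT) and 238 CPM (KO). Maob, monoamine oxidase B, which breaks amines down, stood at 168 (WT) and 208 CPM (KO), against 0.0571 and 0.106 CPM elsewhere. Ddc, the decarboxylase that completes serotonin, was sparse, with 20 UMIs in WT and 15 in KO. Of the 7 amine genes counted, 5 were at least 4-fold higher in both libraries and none was 4-fold lower.

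Genes for the matrix that holds proteases and amines in the granule were high. Srgn, the serglycin core protein, stood at 3594 (WT) and 4598 CPM (KO), against 541 and 564 CPM in the other cells, and was counted from 26 to 138 UMIs per cell in WT (median 61.5) and from 29 to 233 in KO (median 95). Its ranges show it in every mast cell. Papss2, which makes the sulfate donor, stood at 84.1 (WT) and 122 CPM (KO). Ndst2, the enzyme that starts heparin sulfation in mast cells, stood at 165 (WT) and 152 CPM (KO), against 5.67 and 6.41 CPM. Hs6st2 and Hs3st1, later heparan sulfotransferases, stood at 139 (WT) and 158 CPM (KO) and at 124 (WT) and 152 CPM (KO). Chst1, a sulfotransferase that acts on keratan sulfate, stood at 119 (WT) and 107 CPM (KO), with 0.0500 and 0.0867 CPM in the other cells. All 7 genes of the list that were counted, of 20 listed, were at least 4-fold higher in both libraries.

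The high-affinity IgE receptor was uneven across its subunits. Fcer1g, the signalling gamma chain shared with other Fc receptors, stood at 1680.5 (WT) and 1662 CPM (KO) and was found in all mast cells, against 76.9 and 61.3 CPM in the other cells. Fcer1a, the alpha chain that binds IgE, had 53 UMIs in WT and 158 in KO, in 14 WT and 15 KO cells. Most mast cells therefore had no Fcer1a UMI. Ms4a2, the beta chain, had 36 UMIs in WT and 51 in KO in 17 WT and 24 KO cells. Lat2 and Prkcb, an adaptor and a kinase of the pathway, stood at 322 (WT) and 355 CPM (KO) and at 171 (WT) and 214 CPM (KO), and Lcp2, another adaptor, at 149 (WT) and 188 CPM (KO). Lyn, Syk, Btk and Fyn, kinases common to blood cells, were less than 4-fold above the other cells, Syk standing at 46.5 (WT) and 36.5 CPM (KO) against 38.4 and 45.3 CPM. Altogether 6 of 13 counted genes of the list were 4-fold higher in both libraries, or 9 of 14 at ordinary depth.

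When every cell was thinned to 8000 gene UMIs, Fcer1a was found in 12.5% of WT and 23.5% of KO mast cells (19.4% and 29.4% before thinning), against 0% and 0.0743% of the other cells. Ms4a2 was found in 18.1% and 33.3% (23.6% and 47.1% before), against 0.777% and 2.01%. Both receptor chains were thus seen in a minority at equal depth. In the 9 WT and 16 KO cells that met a rule for basophils and eosinophils, Ms4a2 was at 253 and 222 CPM.

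The receptors Il1rl1 and Kit were found in every mast cell. Il1rl1, the receptor for IL-33, was counted from 5 to 66 UMIs per cell in WT (median 19.5) and from 2 to 73 in KO (median 28). Its level was 1106 (WT) and 1325 CPM (KO), against 3.36 and 8.30 CPM in the other cells, a log2 ratio of 8.36 in WT (8.21 to 8.51) and 7.32 in KO (7.20 to 7.44). Kit, the receptor for stem cell factor on which the cells were sorted, was counted from 6 to 55 UMIs per cell in WT (median 19.5) and from 4 to 72 in KO (median 26). It stood at 1101 (WT) and 1292 CPM (KO), against 192 and 209 CPM in the other cells, a log2 ratio of 2.52 in WT (2.45 to 2.60) and 2.63 in KO (2.55 to 2.71). The other cells were also sorted as c-Kit+, so this difference was one within the gate. Cd63, a granule membrane protein, stood at 1168 (WT) and 1135 CPM (KO). Csf2rb and Il3ra, subunits of the IL-3 receptor, stood at 129 (WT) and 137 CPM (KO) and at 59.0 (WT) and 50.8 CPM (KO), the first in 59 WT and 46 KO cells and the second in 43 and 32.

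Other receptors were seen in only part of the cells. Mrgprb2, the receptor for basic secretagogues, had 65 UMIs in WT and 103 in KO in 24 WT and 18 KO cells, and 1 and 2 UMIs over all other cells. Mrgprb1, its neighbour in the family, had 3 UMIs in WT and 50 in KO, in 1 WT and 5 KO cells. Il18r1, a subunit of the IL-18 receptor, stood at 20.7 (WT) and 49.0 CPM (KO), and Adora3, an adenosine receptor, at 73.1 (WT) and 95.4 CPM (KO). Cd200r3, an activating receptor that basophils share, stood at 132 (WT) and 239 CPM (KO), against 0.892 and 0.876 CPM. Of the 12 receptor genes counted, 10 were at least 4-fold higher in both libraries, and 13 of 15 at ordinary depth. Among integrins and adhesion genes, Itgb7 alone of 6 passed, at 83.4 (WT) and 99.8 CPM (KO) against 5.26 and 4.47 CPM.

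Of the eicosanoid genes, 2 of 4 counted were 4-fold higher in both libraries. Hpgds, which makes prostaglandin D2, stood at 210.3 (WT) and 217 CPM (KO), against 5.08 and 6.86 CPM in the other cells. Alox5, the 5-lipoxygenase that starts leukotriene synthesis, stood at 137 (WT) and 170.2 CPM (KO), against 1.11 and 3.0 CPM. Ltc4s, which completes leukotriene C4, had 4 UMIs in WT and 2 in KO. Pla2g7, which breaks down platelet-activating factor and ranked among the highest genes, stood at 497 (WT) and 570.5 CPM (KO), against 0.164 and 0.270 CPM. Among cytokines, Il4 was the only one of 4 counted that was 4-fold higher, at 88.6 (WT) and 129 CPM (KO), in 58 WT and 44 KO cells, against 4.40 and 4.31 CPM. Tnf stood at 11.1 (WT) and 12.5 CPM (KO), and Il13, Il5, Il3, Ccl2 and Ccl7 had no UMI in mast cells.

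Transcription factors known from mast cells were not all high. Gata2, a master regulator of mast cells, was counted from 2 to 22 UMIs per cell in WT (median 8.50) and from 1 to 32 in KO (median 15) and stood at 486 (WT) and 669 CPM (KO), against 30.7 and 40.3 CPM in the other cells. Mitf, which drives Kit and granule genes, stood at 75.3 (WT) and 109.6 CPM (KO), against 2.07 and 2.20 CPM. Hes1, Meis2 and Id2 were high as well: Hes1 stood at 196 (WT) and 301 CPM (KO), Meis2 at 124 (WT) and 146 CPM (KO) and Id2 at 290.0 (WT) and 422 CPM (KO). Gata1, the erythroid and mast cell factor, stood at 35.4 (WT) and 47.2 CPM (KO), against 11.9 and 23 CPM in the other cells. Spi1, the myeloid factor PU.1, stood at 106 (WT) and 75.8 CPM (KO), near the 114 and 92.4 CPM of the other cells. Cebpa had 8 UMIs in WT and 1 in KO. Of 20 factors counted 6 were 4-fold higher in both libraries. At ordinary depth 6 of 21 were higher and 3 were lower. Runx1 was among these, with log2 ratios of -2.13 in WT and -2.14 in KO at that depth, as was Lmo2, with -3.73 in WT and -5.11 in KO.

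The machinery that releases granules was higher than in the other cells for some genes. Rab27b, a small GTPase of granule docking, stood at 344 (WT) and 377 CPM (KO), against 7.90 and 8.95 CPM, Stx3, a fusion protein of the plasma membrane, at 62.0 (WT) and 45.5 CPM (KO), against 1.56 and 2.45 CPM, and Rab44 at 77.5 (WT) and 72.2 CPM (KO), against 6.67 and 11.6 CPM. Vamp8, a fusion protein of the granule itself, was near the level elsewhere, at 229.5 (WT) and 171 CPM (KO) against 226 and 212 CPM. The count was 3 of 7. Among lysosomal enzymes 4 of 15 passed, or 6 at ordinary depth. They included Ctsd, cathepsin D, at 583 (WT) and 663 CPM (KO) against 64.6 and 65.2 CPM. Of genes of survival and stem cell factor signalling, Kit alone of 12 passed over all mast cells.

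Some of the highest genes by the interval bound nearest to 0 had no place in the lists of mast cell genes. Smpx, known as a small cytoskeletal protein of muscle, stood at 219 (WT) and 276 CPM (KO), against 1 and 2 UMIs over all other cells. Rgs13, a regulator of G protein signalling, stood at 146 (WT) and 185 CPM (KO), against 0.0285 and 0.0193 CPM. Calca, which encodes calcitonin and the neuropeptide CGRP, had 94 UMIs in WT and 152 in KO in 22 WT and 21 KO cells. Atp8b5, a lipid flippase gene, stood at 222 (WT) and 196 CPM (KO), and Gpr141b, an orphan receptor, at 74.5 (WT) and 84.7 CPM (KO). Cyp11a1, which makes pregnenolone from cholesterol, stood at 345 (WT) and 314 CPM (KO), against 0.378 and 0.626 CPM, and was found in 72 WT and 48 KO cells. Apart from Calca, at 69.4 (WT) and 135 CPM (KO), the levels of these genes differed by less than 1.5-fold between the libraries.

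Markers of other cell types were read in mast cells of ordinary depth. The 10 basophil genes summed from 66.4 to 7731 CPM in WT (median 1077) and from 202 to 5474 CPM in KO (median 1546) per cell, and 4 of 4 counted were 4-fold higher than in the other cells. Those were genes that mast cells are known to share, such as Prss34, Cd200r3, Fcer1a and Cyp11a1, while Mcpt8, which defines basophils, had 1 UMI in WT and 7 in KO. Of 10 eosinophil genes, none reached the 50 CPM at which a gene was counted. They summed to 42.5 (WT) and 47.5 CPM (KO), against 3.88 and 15.4 CPM in the other cells. Epx, Prg3, Ear1, Ear2, Ear6, Ccr3 and Alox15 were at 0 in both libraries. The UMIs of the list came from Il5ra and Siglecf and, in KO, also Prg2. The list of 12 stem cell genes summed from 0 to 1252 CPM in WT (median 96.1) and from 0 to 374 CPM in KO (median 138), against medians of 511 and 438 CPM in the other cells, with Slamf1, Fgd5 and Hoxb5 at 0 in both. Elane, Ms4a3, Fcnb, Csf3r and Ly6c2 of the granulocyte-monocyte list were at 0. The 10 erythroid genes summed from 0 to 1853 CPM in WT (median 0) and from 0 to 177 CPM in KO (median 0), with Hba-a1 at 0 in both. The monocyte, macrophage and dendritic cell list summed to 237 CPM (WT) and 255 CPM (KO), against 80.1 and 81.9 CPM in the other cells. Its 1 counted gene was Cx3cr1, the fractalkine receptor, at 228 and 236 CPM, with log2 ratios to the other cells of 5.94 in WT and 5.71 in KO. After thinning, Cx3cr1 was found in 68.1% and 68.6% of all mast cells (83.3% and 82.4% before), against 1.84% and 2.01% of the other cells (4.39% and 5.28% before), while Adgre1, C1qa and C1qb were at 0 at ordinary depth. The list for T, NK and innate lymphoid cells summed to 194 CPM (WT) and 263 CPM (KO), against 102 and 101 CPM. Nkg7, a granule protein of cytotoxic cells, made up 177 and 244 CPM of this, with Cd3e, Cd3d, Trbc1, Klrb1c, Il2rb and Lck at 0 in both. In the lists for lymphoid progenitors, megakaryocytes and endothelial cells, 4, 1 and 1 genes were counted and 0 were 4-fold higher in both libraries. The megakaryocyte list summed to 204 (WT) and 203 CPM (KO), above the 156 and 184 CPM of the other cells. The lymphoid list summed to 278 and 358 CPM, against 458 and 389 CPM. The endothelial list summed to 48.2 and 37.4 CPM, against 276 and 221 CPM. In those for B cells, neutrophils, hepatocytes and mesenchymal cells 0 genes were counted, so none could pass.

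Proliferation genes were lower in mast cells of ordinary depth than in the rest of the gate. The depth limit fell on mast cells only, while other cells reached 218989 (WT) and 211099 gene UMIs (KO). How much of the contrast came from that limit was not tested. At that depth 17 of 18 S phase genes counted and 16 of 20 G2 and M phase genes counted were at least 4-fold lower than in the other cells of both libraries, beside 7.77% of all genes counted. Top2a, which untangles replicated DNA, stood at 8.50 (WT) and 15.8 CPM (KO), against 295 and 352 CPM in the other cells, and Pcna, the replication clamp, at 45.4 (WT) and 50.3 CPM (KO), against 224 and 261 CPM. Mki67, which marks cycling cells, was found after thinning in 3.39% and 9.52% of mast cells of ordinary depth (6.78% and 16.7% before), and in 38.8% and 49.5% of the other cells (51.0% and 64.1% before). The summed S phase level ran from 0 to 1195 CPM in WT (median 179.8) and from 0 to 1387 CPM in KO (median 231) per cell. In the other cells it ran from 0 to 6131 CPM in WT (median 1525) and from 55.4 to 6030 CPM in KO (median 1766). The G2 and M phase level reached 5621 (WT) and 4414 CPM (KO) in single mast cells of ordinary depth, against other cells' medians of 666 and 1335 CPM. Single cells of the groups thus overlapped.

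Over all mast cells the contrast was smaller: of 18 S phase and 20 G2 and M phase genes counted, 0 were 4-fold lower in both libraries. In the deep cells alone the S phase list summed from 542 to 3653 CPM in WT (median 1932) and from 331 to 2511 CPM in KO (median 1614). At least 10 UMIs of Mki67 and Top2a together were held by 9 of 13 deep WT and 3 of 9 deep KO cells, and by 0 and 1 cells of ordinary depth. The genes lowest in mast cells were Ifi203, Car2, Dennd5b, Mycn and 6 histone genes of replicating cells, whose close copies make the split of their reads uncertain. Car2, carbonic anhydrase 2 of the erythroid and megakaryocyte line, stood at 24.1 (WT) and 2.88 CPM (KO) at ordinary depth, against 330.4 and 405 CPM elsewhere, and Mycn, a transcription factor of the MYC family, at 4.25 (WT) and 0 CPM (KO), against 69.2 and 49.3 CPM.

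Surface antibodies, which the rule did not use, gave another view of the same cells. The CD117 tag was counted from 471 to 3979 UMIs per cell in WT (median 1710) and from 511 to 6662 in KO (median 1681) in mast cells, and the other cells had medians of 688 and 993. The ratio of medians was 2.49 in WT and 1.69 in KO. At ordinary depth 55 of 59 WT and 38 of 42 KO mast cells lay above the other cells' median, although they held fewer antibody UMIs in all (medians of 2262 and 3006.5, against 3791.5 and 6140). As a share of a cell's antibody UMIs CD117 was 61.4% and 54.6% at the median, against 18.1% and 15.3%. The tag and the Kit transcript were thus higher in mast cells in both libraries.

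CD48 went the other way. In mast cells it was counted from 44 to 15843 UMIs per cell in WT (median 715) and from 73 to 9235 in KO (median 1278), against medians of 2753 and 4489 in the other cells, a ratio of medians of 0.260 in WT and 0.285 in KO. None of the 59 and 42 mast cells of ordinary depth reached the other cells' median. The deep mast cells had medians of 5325 and 5471, above that of the other cells. With a minimum of 16000 gene UMIs, where 18 WT mast cells were left, the ratio in WT was 1.37. The Cd48 transcript differed less, at 114 (WT) and 111 CPM (KO) against 153 and 143 CPM, a log2 ratio of -0.43 in WT (-0.67 to -0.20) and -0.36 in KO (-0.62 to -0.10).

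The Sca1 tag, on which the gate rests, was counted from 10 to 1115 UMIs per cell in WT (median 87) and from 25 to 548 in KO (median 114) in mast cells, against medians of 156 and 175. Only 10 of 59 and 10 of 42 cells of ordinary depth lay above those medians. The Ly6a transcript, which encodes Sca1, stood at 14.8 (WT) and 33.0 CPM (KO) in mast cells and 12.8 and 9.42 CPM in the other cells, so it was not lower. As a share of a cell's antibody UMIs the Sca1 tag had medians of 3.10% in mast cells against 3.98% in WT, and of 3.34% against 2.92% in KO, so the libraries differed in direction. CD34 had medians of 21.5 and 37, against 57 and 101, while the Cd34 transcript had log2 ratios of 0.33 in WT (0.17 to 0.49) and 0.45 in KO (0.27 to 0.63). CD150 and CD201, tags of stem cells, had medians of 5 and 4.5 UMIs in WT and 9 and 14 in KO, against 13 and 10, and 26 and 38, in the other cells. As median shares of antibody UMIs, CD34 was 0.807% against 1.51% in WT and 1.08% against 1.79% in KO. CD150 was 0.212% against 0.323% and 0.281% against 0.427%, and CD201 0.159% against 0.242% and 0.435% against 0.598%. The genes of CD150 and CD201 were near 0: Slamf1 had 0 UMIs in WT and 2 in KO, and Procr had 8 UMIs in WT and 0 in KO. How far the sort on Kit and Sca1 set which mast cells were seen was not tested, since unsorted cells were not analysed here.

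**Figure D3:**
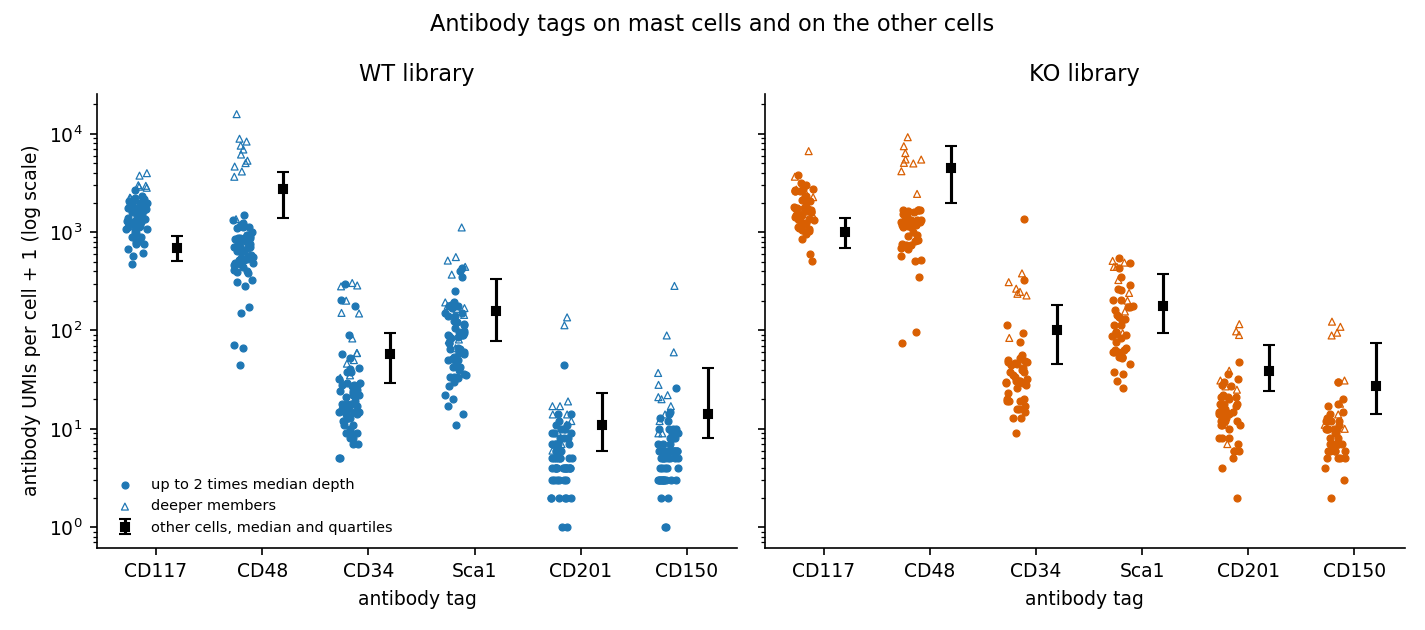
Antibody UMIs per cell plus 1 (log axis) for each of the 6 tags, in WT (left) and KO (right). Points are mast cells of ordinary depth, open triangles are deep mast cells, and squares with bars give the median and quartiles of the other cells. CD117 lies above the other cells, and CD48 lies below them except in the deep mast cells.

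Among mast cells of ordinary depth the granule genes varied together to a degree, each taken as a share of the cell's UMIs. Over the 59 WT cells Pearson's r was 0.67 between Cma1 and Tpsb2 and 0.65 between Cma1 and Cpa3. Over the 42 KO cells the values were 0.45 and 0.35. Between Cma1 and Hdc they were 0.31 and 0.08. The points of each library share its depth and preparation, so these describe the cells and carry no test.

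The sparser genes did not mark 1 common set of cells. Mrgprb2 and Prss34 were both found in 12 of 59 WT cells, Mrgprb2 alone in 9, Prss34 alone in 18 and neither in 20. In KO these counts were 11, 6, 16 and 9 of 42. Mrgprb2 and Fcer1a were found together in 3 WT and 10 KO cells, with r of -0.15 and 0.55. At 8000 UMIs a cell, Prss34 was found in 47.2% and 52.9% of mast cells, Mrgprb2 in 22.2% and 29.4% and Calca in 25% and 33.3%, against 51.4% and 62.7%, 33.3% and 35.3%, and 30.6% and 41.2% before thinning. Each of these genes was in at most 0.855% of thinned other cells.

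**Figure D4:**
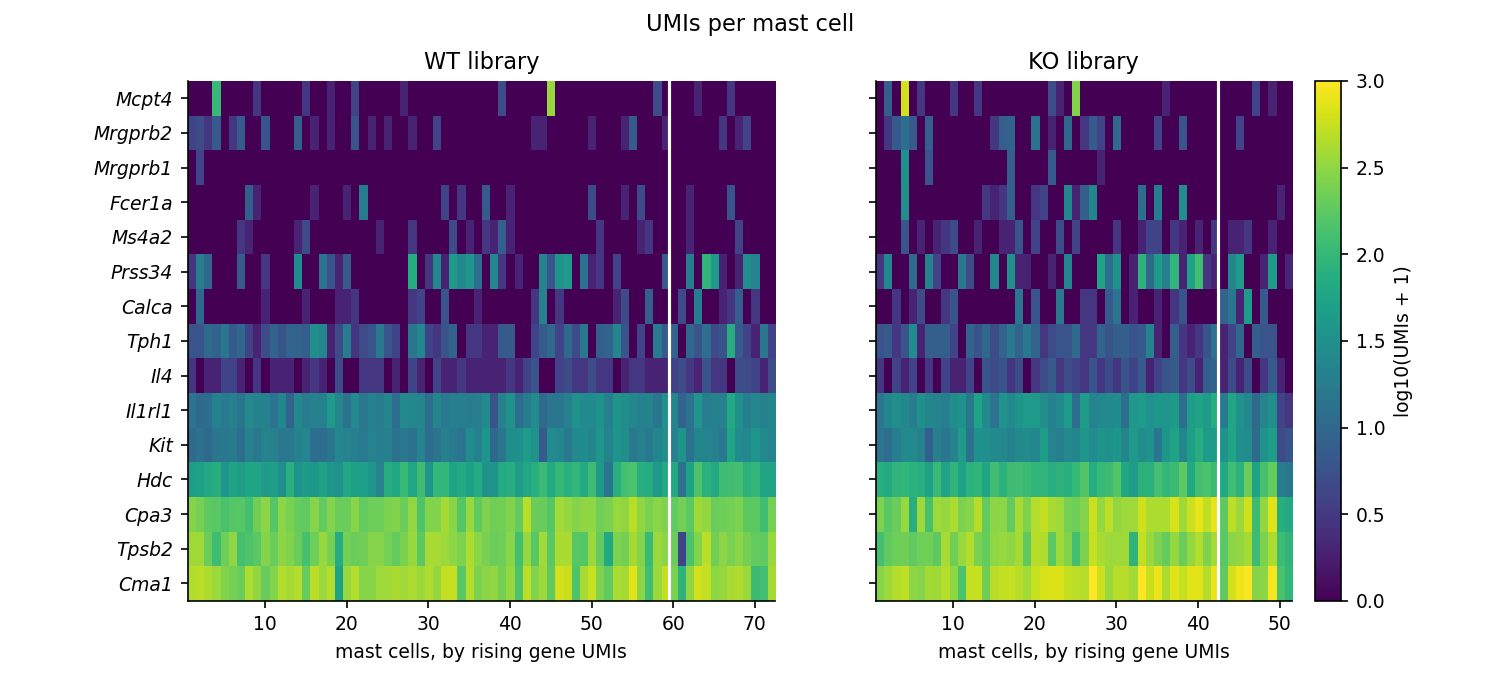
UMIs per cell of 15 genes (rows, colour on a log10 scale of UMIs plus 1) in the 72 WT (left) and 51 KO (right) mast cells, ordered by rising gene UMIs. The white line parts the deep cells, at the right. Cma1 and Cpa3 are high throughout, Tpsb2 in all but 1 WT cell, and Mcpt4, Mrgprb2, Fcer1a and Prss34 are present in part of the cells.

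The libraries were then compared. Mast cells were 1.35% of WT cells (exact Clopper-Pearson interval 1.05 to 1.69) and 1.86% of KO cells (1.39 to 2.44). The difference of 0.515 percentage points had an interval of -0.0466 to 1.15, which includes 0. These are shares of gated, c-Kit-enriched cells that passed the depth minimum, and KO cells were deeper than WT cells. The gate, the minimum and the genotype cannot be told apart for this value. At a minimum of 16000 UMIs the shares were 0.437% and 1.35%, a difference of 0.915 points (0.452 to 1.48), whose interval excludes 0. At a mitochondrial limit of 5% the difference was -0.108 points (-0.596 to 0.467). The reading of the interval thus depended on the cutoffs.

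Bclaf1, the targeted gene, stood at 142 (WT) and 56.2 CPM (KO) mast cells, a log2 ratio of KO over WT of -1.34 (-1.77 to -0.92). At ordinary depth it was 102 and 54.6 CPM, or -0.90 (-1.51 to -0.31), and in the other cells 219 and 76.1, or -1.52. Bclaf1 UMIs were found in 47 WT and 30 KO mast cells. The labels do not name the floxed exons, and 3′ ends outside the deleted part would still be counted, so this value does not show in which mast cells the allele was lost.

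Of the genes that the rule did not use, Cpa3 and Kit differed by less than 1.5-fold between the libraries. At ordinary depth the log2 ratio of KO over WT was 0.12 (0.09 to 0.15) for Cpa3 and 0.08 (-0.04 to 0.20) for Kit. For the rule's own genes, where it describes the choice only, it was 0.06 for Cma1, -0.24 for Tpsb2 and 0.12 for Hdc. The log2 ratio of Gata2 was 0.35 (0.18 to 0.52) and that of Mitf 0.46 (0.03 to 0.90). The tryptase Tpsab1 was lower in KO, at a log2 ratio of -0.70 (-1.01 to -0.40), and so was Tph1, at -0.55 (-0.78 to -0.32). With only cells of at least 16000 gene UMIs Tpsab1 was at 0.09. Over all genes counted in mast cells the median log2 ratio was -0.06, or -0.03 at ordinary depth. Of 7 granule proteases counted at ordinary depth 2 were at least 1.5-fold higher in KO and 1 was lower, of 15 lysosomal enzymes 0 and 1, and of 17 transcription factors 3 and 0. Over all genes counted 4.71% were 1.5-fold higher and 3.42% lower at that depth, and 2.94% and 4.28% with the deep cells. A depth minimum of 16000 UMIs, which left 18 WT and 33 KO mast cells, gave 285 genes higher and 417 lower, against 72 and 105.

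Immediate early genes, which cells switch on within minutes of a stimulus, had the largest median difference among the lists with at least 5 genes counted at ordinary depth. All 10 of the 10 counted, of 22 listed, were at least 1.5-fold higher in KO mast cells, beside 2.94% of all genes counted, with a median log2 ratio of 1.19. With free RNA subtracted, at unequal bounds of 33.5% of UMIs in WT and 3.31% in KO, 7 of 10 passed. With equal weight per cell it was 9 of 11. At a mitochondrial limit of 5% it was 10 of 12, and at a minimum of 16000 UMIs 9 of 10. At ordinary depth 11 of 12 passed, beside 4.71% of all genes counted, with a median of 1.58. The same genes had a median of 0.96 in the other cells, so the other cells had the same direction. The summed level of the list ran from 412 to 4463 CPM in WT (median 1471) and from 645 to 10464 CPM in KO (median 3875) per cell of ordinary depth, so the libraries overlapped. Such genes also respond to how cells are prepared, and with 1 preparation per genotype the genotype and the preparation cannot be told apart.

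Fos, a part of the AP-1 factor, was counted from 0 to 19 UMIs per cell in WT (median 1) and from 0 to 69 in KO (median 5.50) at ordinary depth. Its level over all mast cells was 122 (WT) and 390.4 CPM (KO), a log2 ratio of 1.68 (1.42 to 1.95), or 1.53 (1.25 to 1.82) at ordinary depth and 1.86 in the other cells. Jun, its partner, was counted from 0 to 11 UMIs per cell in WT (median 2) and from 0 to 33 in KO (median 9). It stood at 235 (WT) and 575 CPM (KO), a log2 ratio of 1.29 (1.10 to 1.49), or 1.83 (1.55 to 2.11) at ordinary depth and 1.03 in the other cells. Zfp36, which destabilises cytokine transcripts, was counted from 0 to 6 UMIs per cell in WT (median 0) and from 0 to 14 in KO (median 3). It stood at 36.9 (WT) and 209 CPM (KO), a log2 ratio of 2.50 (2.06 to 2.98), or 2.25 (1.74 to 2.79) at ordinary depth and 1.29 in the other cells. Median counts of all 3 were higher in KO cells, whose median depth was also higher, and the single cells of the libraries overlapped.

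Egr1, a zinc finger factor, had a log2 ratio of 2.29 (1.38 to 3.33) at ordinary depth, where 7 WT and 12 KO cells held it, against 0.99 (0.47 to 1.52) over all mast cells and 0.96 in the other cells. Klf2, another zinc finger factor, had a log2 ratio of 2.11 (1.39 to 2.89) and Dusp1, a phosphatase that ends MAP kinase signals, 1.64 (1.02 to 2.30), against 1.49 and 1.45 in the other cells and 2.05 and 2.09 over all mast cells. Ppp1r15a, which restores translation after stress, had a log2 ratio of 1.52 (0.94 to 2.13), against 0.85 in the other cells and 1.80 over all mast cells. In cells thinned to 8000 UMIs, Fos was found in 61.0% of WT and 83.3% of KO mast cells of ordinary depth (66.1% and 85.7% before), and Zfp36 in 32.2% and 69.0% (33.9% and 78.6% before). The order of the libraries was therefore the same at equal depth. The median mitochondrial share of these cells was 4.39% in WT and 5.50% in KO, and its part in the result was not tested.

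**Figure D5:**
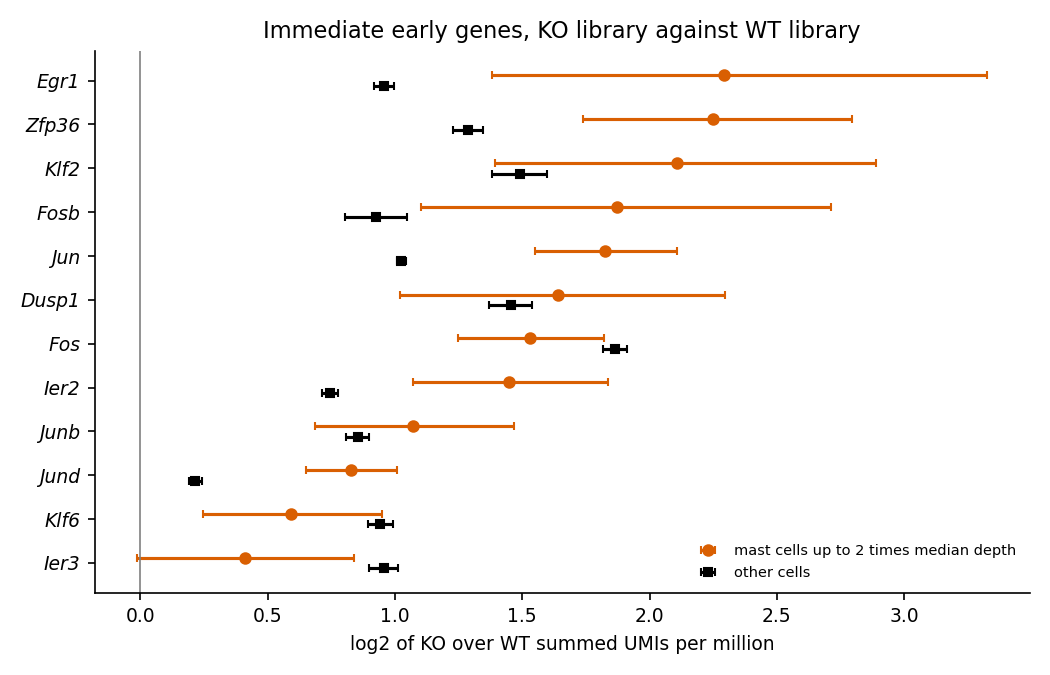
Log2 ratio of KO over WT for the 12 immediate early genes counted in mast cells of ordinary depth (orange circles), beside the ratio in the other cells (black squares). Bars are 95% intervals for counting error only. All circles lie to the right of 0, and 11 of them lie at or beyond 1.5-fold.

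Fcer1a, the receptor chain that binds IgE, was higher in the KO library. It stood at 39.1 (WT) and 141 CPM (KO), a log2 ratio of 1.85 (1.39 to 2.33), and 1.76 (1.28 to 2.26) at ordinary depth. At that depth 12 WT and 14 KO cells held it, but 3 WT and 8 KO cells held 5 or more UMIs, and the highest cell held 16 and 29. The difference thus rested on a few cells. At ordinary depth Ms4a2 had a log2 ratio of 0.54 (-0.14 to 1.24), Mrgprb2 0.78 (0.30 to 1.27), Cd200r3 0.60 (0.31 to 0.90), Prss34 0.60 (0.43 to 0.78) and Il4 0.59 (0.18 to 1.00). At a mitochondrial limit of 5% Mrgprb2 was at -0.08. Mrgprb1, below the mean of 50 CPM at which a gene was counted, had 3 and 50 UMIs, all at ordinary depth, a log2 ratio there of 4.08 (2.45 to 6.41) from 1 WT and 5 KO cells. Mcpt4 had a log2 ratio of 0.98 (0.82 to 1.14), which rested on 2 cells of each library. In the other cells the log2 ratio of Prss34 was 2.05 and that of Il4 was -0.03.

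Outside these lists, Gm20186, a predicted gene, stood at 15.5 (WT) and 209 CPM (KO), a log2 ratio of 3.75 (3.10 to 4.47), or 3.13 (2.47 to 3.86) at ordinary depth, against 1.28 in the other cells. It was found in 10 WT and 25 KO mast cells. Igf2, a fetal growth factor, was at 17.0 (WT) and 101 CPM (KO) at ordinary depth, a log2 ratio of 2.57 (1.67 to 3.58), or 2.25 over all mast cells, against -0.29 in the other cells, but in only 9 WT and 11 KO cells. Klhl24, an adaptor of protein degradation, was at 26.9 and 106 CPM, a log2 ratio of 1.98 (1.24 to 2.79) against 0.05, and of 1.05 (0.61 to 1.5) over all mast cells. Hist1h2ac, a histone gene whose close copies may share its reads, had a log2 ratio of 1.96 (1.49 to 2.45) against 0.13, and of 1.48 over all mast cells. Whether any of these differed more in mast cells than elsewhere could not be tested with 1 library per genotype.

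At ordinary depth the genes lowest in KO mast cells included Golgb1, a Golgi matrix protein, at 112 and 51.8 CPM in WT and KO, a log2 ratio of -1.11 (-1.72 to -0.53), or -0.90 over all mast cells. Plin2, the coat protein of lipid droplets, was at 118 and 57.5 CPM, a log2 ratio of -1.03 (-1.61 to -0.47), or -0.43 (-0.88 to 0.02) over all mast cells. Prnp, the prion protein, which mast cells held far above the other cells, was at 279 and 168 CPM, a log2 ratio of -0.73 (-1.07 to -0.39), or -0.43 over all mast cells. At ordinary depth the log2 ratio of Imp3, of ribosome assembly, was -0.98 (-1.55 to -0.43), that of the chaperone subunit Pfdn2 -1.0 (-1.65 to -0.38) and that of Dap -0.91 (-1.47 to -0.38). It was -0.72 (-1.08 to -0.36) for Ctsz, cathepsin Z, -0.98 (-1.64 to -0.35) for the mitochondrial enzyme Idh2, -0.63 (-0.84 to -0.41) for the selenoprotein Selenow and -0.59 (-0.86 to -0.33) for Ndufa13, of respiratory complex I. Over all mast cells these 7 log2 ratios were smaller in size: -0.10 (-0.43 to 0.23) for Imp3, -0.70 for Pfdn2, -0.46 for Dap, -0.38 for Ctsz, -0.84 for Idh2, -0.35 for Selenow and -0.41 for Ndufa13. The intervals of Plin2 and Imp3 then included 0. In the other cells these 10 genes had log2 ratios from -0.26 to 0.26. Gm42418, a locus that overlaps ribosomal RNA, was also among the lowest, with a log2 ratio of -0.41 (-0.48 to -0.35).

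Some differences over all mast cells rested on the deep ones. Mt2, a metallothionein that binds metals, had a log2 ratio of 6.76 (5.52 to 8.39), but a single KO cell held 51.8% of the KO UMIs, and at ordinary depth KO stood at 17.3 CPM. Mt1, its neighbour, had a log2 ratio of 2.82 (2.60 to 3.04) over all mast cells and 0.22 (-0.10 to 0.53) at ordinary depth. Mpo, the myeloperoxidase of granulocytes, had log2 ratios of -2.16 (-2.60 to -1.74) and 0.02 (-2.40 to 2.45), Prtn3, proteinase 3, -2.20 (-2.58 to -1.84) and -0.68 (-2.16 to 0.70), and Ifitm3, an interferon-induced membrane protein, -1.26 (-1.61 to -0.92) and 0.09 (-0.84 to 1.02). All 3 granulocyte-monocyte genes counted were at least 1.5-fold lower in KO over all mast cells, beside 4.28% of all genes counted. None reached 50 CPM at ordinary depth. H2afy, a histone variant, had log2 ratios of -1.09 (-1.26 to -0.92) and -0.35 (-0.85 to 0.13). The intervals at ordinary depth included 0 for Mt1, Mpo, Prtn3, Ifitm3 and H2afy.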

How the data were processed

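Mouse E17.5 LSK cells of 2 genotypes were read in 1 droplet library each. The deposited matrices hold raw UMI counts for 32285 genes and 6 antibodies in all barcodes. They were made with Cell Ranger, per the file headers, in version 4.0.6 and against mm10 per the submitters' processing notes, which also name Seurat and DESeq. How reads that fit several genes were treated is not given in the sources used here. Of the genes, 78 share a symbol with another.

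The mast cells, the gene lists and the depth split were chosen with earlier results of these data known. Counts were summed over the mast cells, and over the other cells, of each library and divided by the gene UMI total to give CPM. A gene was counted at 50 CPM or more in a set compared with the other cells, or as the mean of the libraries between KO and WT, and called at 4-fold in both libraries against the other cells or at 1.5-fold between KO and WT. With 1 library per genotype no test across samples was made. Intervals are exact Poisson or Clopper-Pearson ones for counts and shares and Newcombe's for a difference of shares, at 95%, and UMIs at 0 allow up to 3 counts. Shares of cells with a UMI were also read after thinning to 8000 UMIs with seed 1. No doublet caller was run.

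Genes were named by a rule: any member of the mast cell lists, up to 4 genes with the largest ratios of each other list (41 lists in all), the 15 highest and 10 lowest against the other cells by the interval bound nearest to 0 (without the 4 rule genes), the 12 highest and 12 lowest between libraries, Bclaf1, and the antibodies with their genes. Haemoglobin, sex-linked and mitochondrially encoded genes stayed out of the rankings. Some genes that the rule names are not reported here. Of the sequences, 4 promoters were matched by symbol in RefSeq's table on GRCm38.p6. The alternatives were another depth minimum, mitochondrial limit, marker rule, scaling and minimum level, removal of free RNA, equal weight per cell and removal of deep cells. The code was tested on simulated data. Python 3.11.15, numpy 2.4.6, scipy 1.17.1, pandas 2.3.3 and matplotlib 3.10.9 were used.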

Additional observations from a re-analysis of the deposited data

Results flagged for a closer look

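Some barcodes below the depth minimum also held the mast cell transcripts. Among barcodes with 1000 to 8000 gene UMIs, which no comparison used, 4 of 260 in WT and 2 of 376 in KO met the marker part of the rule. They are given as counts and were compared with nothing.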

How the results depend on the processing

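No paired analysis was possible because each genotype had 1 library, and for the same reason no replicate could be left out. Precision rests on the UMIs of 72 and 51 cells, so genes near 50 CPM and genes held by few cells are the least certain. Of the recomputed values of single genes and tags, 4615 moved little, 239 moved more and 13 turned. Genes moved little if the log2 ratio shifted by less than 1 against the other cells, or by less than 1.5-fold between libraries. Turns were counted only for genes at least 4-fold apart, or 1.5-fold between libraries, so smaller ratios could change sign uncounted. Gene ratios could not move with another minimum CPM level, or with the stricter marker rule, which kept the same 72 and 51 cells. The cause of the moves and turns was not tested, except where an alternative by its construction counts fewer cells or genes. The counts to compare with were 206 genes 4-fold higher and 9 lower than in the other cells, and 72 higher and 105 lower in KO at 1.5-fold.

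At a minimum of 16000 gene UMIs, with 18 WT and 33 KO mast cells left, the shares were 0.437% and 1.35%, 136 genes were 4-fold higher and 0 lower, and 285 and 417 were higher and lower in KO. The tags in WT then had ratios of 1.37 for CD48, 2.87 for CD117, 1.24 for Sca1, 1.12 for CD150 and 1.33 for CD201, and the log2 ratio of KO over WT was 0.037 for Cd9 and 0.093 for Tpsab1. At a mitochondrial limit of 5%, with 53 and 23 cells left, the KO share was 1.03%, the difference -0.108 points, the count lower in KO 170, the CD48 ratio in KO 0.319 and the log2 ratio of Mrgprb2 -0.078. Without the deepest 10% of mast cells 132 genes were 4-fold lower and Ctsg was at a log2 ratio of 0.29. Without cells over 2 times the median depth, an alternative chosen after seeing the data, 312 were 4-fold higher, 266 lower and 110 higher in KO, and the log2 ratios were 0.088 for Ifitm3, 0.021 for Mpo and 1.49 for Ctsg.

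Median-of-ratios scaling gave 4 genes 4-fold lower and shifted the median of all genes by -0.19 in WT and -0.24 in KO against the other cells and by -0.05 between libraries, on the log2 scale. A total without rule, mitochondrial, ribosomal protein and haemoglobin genes gave 15 lower, and 153 higher and 210 lower in KO. Without a minimum level the counts were 648 and 98, and 1159 and 2150 in KO, with 18 immediate early genes higher. At 200 CPM they were 63 and 4, and 16 and 4, with 3 early genes. Subtraction of free RNA, at upper bounds of 33.5% (WT) and 3.31% (KO) of UMIs, gave 68 lower and 145 higher in KO, with Lmo2 at a log2 ratio of 1.65. The bounds took all Hba-a1, Hba-a2 and Hbb-bt UMIs of mast cells as free RNA and were applied to the other cells too. Single mast cells held up to 64 Hbb-bt UMIs in WT and 5 in KO, so the libraries were corrected unequally. The subtraction left 7 of 10 counted immediate early genes at least 1.5-fold higher in KO. Equal weight per cell gave 109 lower and 56 lower in KO, with Ctsg at 0.015. As a share of antibody UMIs the ratios were 0.449 and 0.506 for CD48, 3.39 and 3.57 for CD117, in WT and KO, and 1.14 for Sca1 in KO. A stricter marker rule kept the same 72 and 51 cells, so gene counts, mast cell shares and tag ratios could not move. Removal of cells that met another lineage's rule kept 72 WT and 50 KO cells, so it could move little. It left in nearly all deep cells with other-lineage UMIs, and their weight is not judged by it. Neither alternative moved any count, share or tag ratio by over 1.5 times.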
